A study of Mus musculus with 2 samples.

Results

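The genes described here encode non-collagen matrix glycoproteins, proteoglycans and the enzymes that crosslink, cut and protect the extracellular matrix of mouse liver. A probe belonged to the set when it was no control spot and its gene name on both arrays was 1 of 41 listed symbols or a synonym. All 41 genes were found, with 56 probes, among 22803 named genes on the array. Laminin beta 1 was found under an older symbol, 30 genes had 1 probe and 11 had more. In this report treated means thioacetamide in the drinking water for 6 months, and each of the 2 arrays held treated liver (Cy5, red) against untreated liver (Cy3, green) of 1 genotype. The genotypes were wild-type and AID transgenic, both on a C57BL/6 background. Thioacetamide is a liver toxin used to produce fibrosis in rodents. The labels do not state the transgene's promoter, the age or sex of the mice, or whether RNA was pooled.

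In a healthy liver, matrix is thin: a loose basement membrane lies between hepatocytes and the sinusoids, and denser matrix surrounds portal tracts and veins. During chronic injury, stellate cells and portal fibroblasts become myofibroblasts that secrete fibrillar collagen together with fibronectin, elastic fibre proteins and small proteoglycans. Lysyl oxidases crosslink these fibres, matrix metalloproteinases cut them, and tissue inhibitors of metalloproteinases (TIMPs) hold that cutting back.

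The labelled tissue was checked on the hepatocyte markers Alb, Ttr and Apoa1, which were well above background in all 4 channels and not saturated. Of 43020 non-control spots per array, 53.9% to 56% were well above background in the untreated channels and 68.4% to 68.8% in the treated ones. Sex-linked transcripts differed within the wild-type array. Xist was at least 6.18-fold higher in treated than in untreated wild-type liver, and the Y-linked genes Ddx3y and Eif2s3y were at least 17.6-fold and 32.1-fold lower. The Y-linked gene Uty had a log2 ratio of -0.56 there, no larger than the scanner software's error of 0.62. Kdm5d, also Y-linked, was not well above background in any channel. On the AID transgenic array Ddx3y and Eif2s3y had log2 ratios of -0.11 and -0.05, and neither channel showed Xist well above background. Sex therefore cannot be told apart from treatment in the wild-type ratio, or from genotype in the comparison of treated livers. The same limit holds for anything else computed from the treated wild-type channel, such as the difference of the ratios. There was no dye swap and no replicate, so no p-value is given, and precision is limited by having 2 arrays. Treated liver was Cy5 on both arrays, so dye and treatment cannot be told apart in a ratio. This includes ratios with the same direction on both arrays. A gene counts as measured when a probe was well above background in at least 1 channel that enters, and as called when it was at least 2-fold higher or lower, a log2 value of 1 in either direction.

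Most matrix genes sat somewhat higher in treated than in untreated wild-type liver, by less than 2-fold. Of 36 measured members 32 had a log2 ratio above 0, against 54.7% of the 16663 genes measured, and their median was 0.30 against 0.03 over all genes. A gene can count as measured through its treated channel alone, which favours ratios above 0. Among members well above background in both channels 25 of 29 were above 0, against 51.5% of all such genes. Of the 36, 1 (Lum) was at least 2-fold higher (1.86% of all genes were), and 0 were at least 2-fold lower (1.64% of all genes). The count of 1 depends on the processing: it was 13 with the scanner's processed signals, 8 with no offset in the background correction and 9 with median centring in place of loess. In AID transgenic liver the treated channel was not higher for most of them. There, 14 of 36 members were above 0 and 22 below (54.6% of 16693 genes were above 0), with a median of -0.11 against 0.03, and 0 members were called higher or lower (1.22% and 0.947% of all genes). Of the members well above background in both AID transgenic channels 9 of 27 were above 0, against 51.7% of all such genes.

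The difference between the arrays, AID transgenic log2 ratio minus wild-type log2 ratio, was below 0 for 33 of 37 measured members, against 50.5% of 17107 genes. Its median was -0.41, against -0.00 over all genes. Of the 37, 6 were at least 2-fold lower in this difference (Mfap4, Lum, Fstl1, Mmp2, Dcn and Adamtsl2), against 1.05% of all genes, and 0 were higher, against 0.929%. This difference is built from both ratios, so it is no independent view of them.

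**Figure D1:**
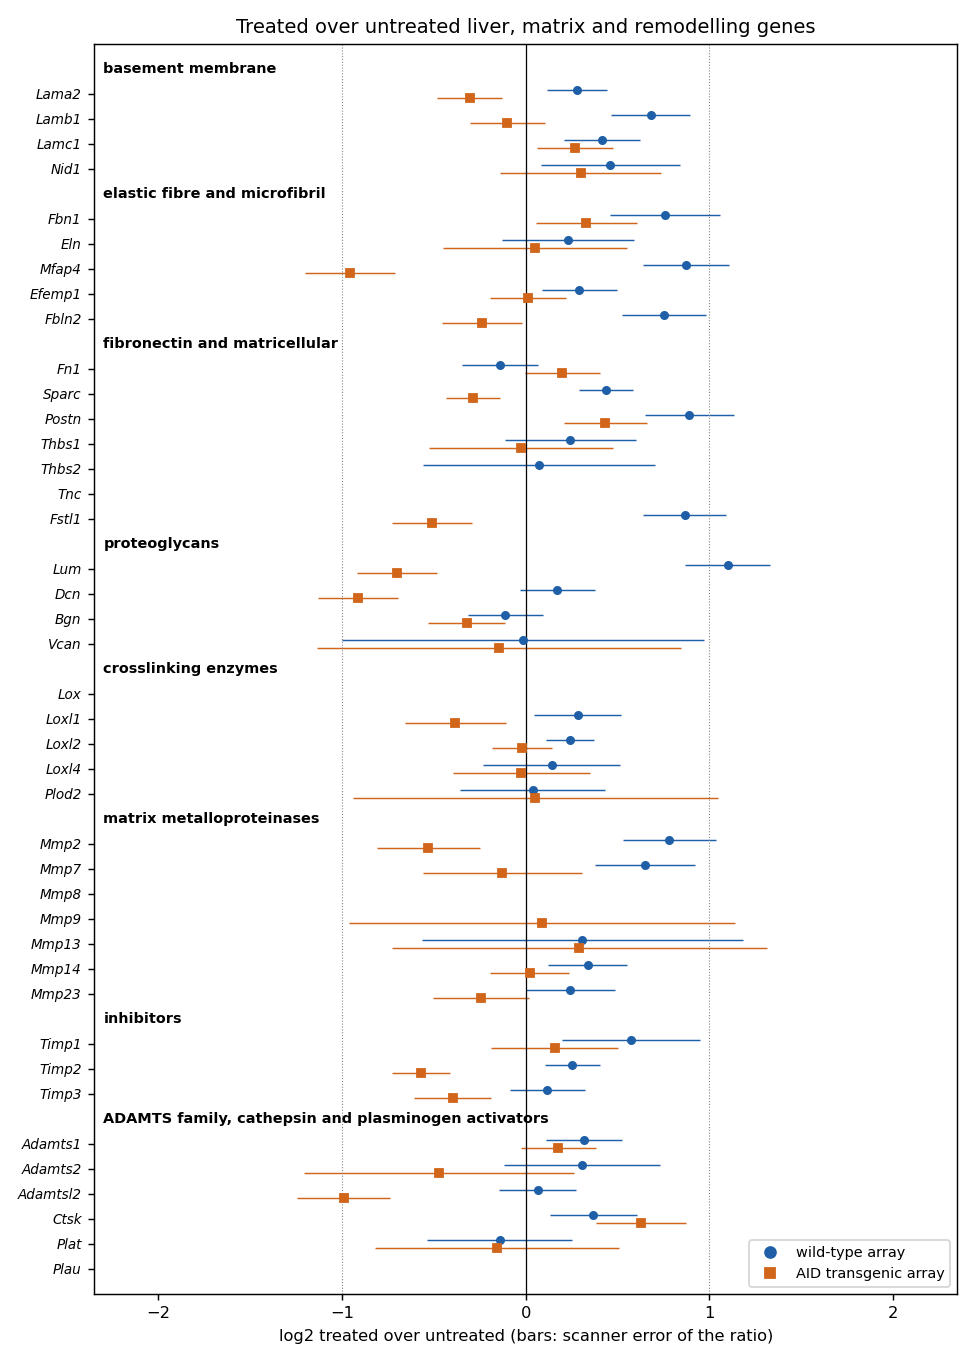
Log2 treated over untreated for each measured member on the wild-type array (circles) and the AID transgenic array (squares), grouped by role, with the scanner software's error of its log2 ratio as bars and dotted lines at 2-fold. Most circles lie right of 0, only Lum (1.10) passes the line at 1, and Mfap4, Lum, Fstl1, Mmp2 and Dcn have their squares left of 0.

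**Figure D2:**
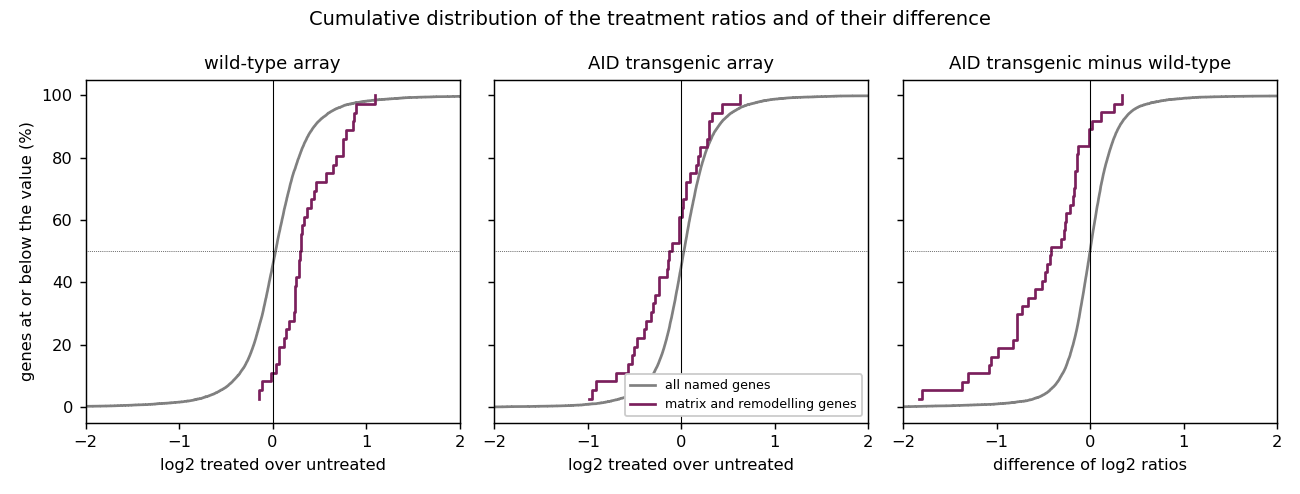
Cumulative percent of genes at or below a log2 value, for the members and for all named genes measured, in each treatment ratio and in the difference of the ratios. The members' line crosses 50% at 0.30, -0.11 and -0.41, and the line of all genes at 0.03, 0.03 and -0.00.

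Levels below are normalized log2 intensities in the order untreated wild-type, treated wild-type, untreated AID transgenic and treated AID transgenic. Errors (±) are those the scanner software gave for its own log2 ratio, so they are technical and not a spread between mice. Levels are compared between channels for 1 gene and not between genes.

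Basement membrane genes had positive treatment ratios in wild-type liver for all 4 members, with a median of 0.44. On the AID transgenic array 2 of 4 were above 0, with a median of 0.08. Lamb1, the laminin beta 1 chain, had levels of 8.80, 9.48, 9.13 and 9.03. Its log2 ratio was 0.68 ± 0.22 in wild-type and -0.10 ± 0.21 in AID transgenic liver, and the treated wild-type channel was the highest. Lama2, the laminin alpha 2 chain, had 6.98, 7.26, 7.24 and 6.94, with ratios of 0.28 ± 0.16 and -0.31 ± 0.18. Both of its probes had this order of signs. Lamc1, the gamma 1 chain that most laminins share, had ratios of 0.41 and 0.27, so it was higher in the treated channel on both arrays. Nid1, nidogen 1, which links laminin to collagen IV, had mean levels of 7.14, 7.60, 7.23 and 7.53 and ratios of 0.46 ± 0.38 and 0.30 ± 0.44. Its 3 probes disagreed: the 1 probe well above background in every channel had levels from 9.05 in untreated to 10.28 in treated wild-type liver, and ratios of 1.24 and 0.70, while the dim probes had -0.08 and 0.23 in wild-type liver. The SD between the probes was 0.69 in the wild-type and 0.36 in the AID transgenic ratio.

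The elastic fibre and microfibril genes include Mfap4, the member with the largest difference between the arrays, close to that of Lum (-1.80). By median difference this role (-0.43) lay nearer 0 than the proteoglycans (-0.65) and the inhibitors (-0.52). All 5 elastic fibre and microfibril genes were above 0 in wild-type liver (median 0.75). In AID transgenic liver 3 of 5 were (median 0.01, and -0.06 with the scanner's processed signals), and the difference was below 0 for all 5. Mfap4, a microfibril-associated glycoprotein that binds elastin and collagen, had levels of 7.43, 8.31, 8.40 and 7.44. Its ratio was 0.87 ± 0.23 in wild-type and -0.96 ± 0.25 in AID transgenic liver, a difference of -1.83 ± 0.34. Its channels form 2 pairs: untreated wild-type and treated AID transgenic liver were both low, and the other two were both high. Fbln2, fibulin 2, which joins elastic fibres to basement membranes, had 7.49, 8.24, 7.90 and 7.66. Its ratios were 0.75 ± 0.23 and -0.24 ± 0.22, and its difference of -0.99 ± 0.31 lay just short of 2-fold. Fbn1, the fibrillin 1 of microfibrils, had 6.63, 7.39, 6.76 and 7.09, with ratios of 0.76 ± 0.30 and 0.33 ± 0.28. Fbn1 was thus higher in the treated channel on both arrays, by more on the wild-type one. Eln, elastin, had 6.46, 6.69, 6.39 and 6.44. Neither untreated channel was well above background for Eln. Its ratios were 0.23 ± 0.36 and 0.05 ± 0.50, and with median centring the AID transgenic ratio was -0.12. With the scanner's processed signals, to which these errors belong, the ratios were 0.85 and 0.63. Efemp1, fibulin 3, had ratios of 0.29 ± 0.21 and 0.01 ± 0.21.

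Among fibronectin and the matricellular proteins, which sit in matrix and signal to cells, 6 of 7 were measured in the difference and 5 of these were below 0. Fstl1, a secreted glycoprotein related to SPARC, had levels of 8.08, 8.94, 8.47 and 7.96. Its ratios were 0.86 ± 0.23 and -0.51 ± 0.22, a difference of -1.38 ± 0.31, and its highest channel was treated wild-type and its lowest treated AID transgenic liver. Sparc, a collagen-binding glycoprotein, followed the same order with 11.42, 11.86, 11.70 and 11.41 and ratios of 0.44 ± 0.15 and -0.29 ± 0.15. Postn, periostin, which promotes collagen crosslinking, had 7.15, 8.04, 7.27 and 7.70. Its ratios of 0.89 ± 0.24 and 0.43 ± 0.22 were both above 0. Fn1, fibronectin, which hepatocytes also release into plasma, went the other way with 15.77, 15.63, 15.50 and 15.70. Its ratio was -0.14 ± 0.20 in wild-type and 0.20 ± 0.20 in AID transgenic liver, each no larger than its technical error. It was the 1 member with a negative wild-type and a positive AID transgenic ratio, and with median centring in place of loess its wild-type ratio was 0.69. Thbs1, thrombospondin 1, an activator of latent TGF-beta, was not well above background in either untreated channel, with ratios of 0.24 ± 0.36 and -0.03 ± 0.50. With the scanner's processed signals its ratios were 0.90 and 0.24. Thbs2 was well above background in treated wild-type liver alone (ratio 0.07 ± 0.63, and 1.51 with processed signals), and Tnc, tenascin C, in no channel.

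The proteoglycans held Lum, the 1 member called in the wild-type ratio. Lum encodes lumican, a small leucine-rich proteoglycan that spaces collagen fibrils, and had levels of 8.91, 10.01, 9.69 and 8.99. Its ratio was 1.10 ± 0.23 in wild-type and -0.70 ± 0.22 in AID transgenic liver, a difference of -1.80 ± 0.32. Treated wild-type liver was the highest channel, and the low pair was again untreated wild-type and treated AID transgenic liver. Dcn, decorin, a relative of lumican that binds collagen and TGF-beta, had 13.69, 13.86, 14.20 and 13.28. Its wild-type ratio of 0.17 ± 0.20 was within its technical error, and its AID transgenic ratio was -0.91 ± 0.22, and the difference was -1.09 ± 0.30. Which array carries this difference depends on the scaling, since with median centring the ratios were 0.93 and -0.18. Here the untreated AID transgenic channel was the highest and the treated one the lowest. Bgn, biglycan, had 9.04, 8.93, 9.09 and 8.77, with negative ratios on both arrays, -0.11 ± 0.21 and -0.32 ± 0.21. Vcan, versican, a large proteoglycan, had 6.71, 6.70, 6.80 and 6.65 as the mean of 3 probes, with ratios of -0.02 and -0.14. The 1 Vcan probe well above background had -0.28 ± 0.21 and -0.34 ± 0.21, so neither Bgn nor Vcan showed the positive wild-type ratio of Lum, although Bgn had 0.50 with median centring.

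The crosslinking enzymes were dim, and their values depended strongly on the background correction. Their median difference between the arrays was -0.21, and -1.05 with the scanner's processed signals. Loxl1, the lysyl oxidase-like enzyme tied to elastic fibres, had 6.76, 7.04, 6.97 and 6.58, with ratios of 0.28 ± 0.24 and -0.38 ± 0.28. Loxl2, which acts on collagen IV, had ratios of 0.24 and -0.02 over 4 probes. The probe with the highest ratio had 0.80 ± 0.23 in wild-type liver and the others between -0.06 and 0.26, and with the brightest probe alone the Loxl2 ratio was -0.06. Plod2, the lysyl hydroxylase of collagen telopeptides, had 6.41, 6.45, 6.23 and 6.28, with ratios of 0.04 ± 0.40 and 0.05 ± 0.99. Neither untreated channel was well above background for Plod2 or for Loxl4, whose ratios were 0.14 and -0.02. Lox itself was not well above background in any channel. No member of this role reached 2-fold in any comparison with normexp at offset 50 and loess. With the processed signals, however, Loxl1 had -1.87 in the difference and -1.15 in treated livers, Loxl4 had 1.31 in the wild-type ratio and -1.64 in the difference, and Plod2 had 1.21 in the AID transgenic ratio. Loxl1 also passed 2-fold in the difference with offset 0 (-1.29).

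Of the 7 matrix metalloproteinases, 5 were measured in the wild-type ratio, all above 0 with a median of 0.34 (Mmp13 was at -0.06 with median centring), and 6 in the AID transgenic ratio, 3 of them above 0 with a median of -0.05. Mmp2, gelatinase A, had levels of 6.86, 7.64, 7.13 and 6.60. Its ratios were 0.78 ± 0.25 and -0.53 ± 0.28, a difference of -1.31 ± 0.38. Treated wild-type liver was again the highest channel and treated AID transgenic liver the lowest. Mmp14, the membrane-bound enzyme that activates Mmp2, had 7.44, 7.77, 7.53 and 7.55, with ratios of 0.34 ± 0.22 and 0.02 ± 0.22, so it differed less than its substrate. Mmp7, matrilysin, a protease of epithelial cells, had 6.76, 7.41, 6.42 and 6.29, and its untreated AID transgenic level was not well above background. Its ratios were 0.65 ± 0.27 and -0.13 ± 0.43, and both AID transgenic channels lay below both wild-type ones. Mmp23, a membrane-anchored enzyme, had 6.98, 7.22, 7.05 and 6.80, with ratios of 0.24 ± 0.24 and -0.24 ± 0.26. The collagenase gene Mmp13 had 5.99, 6.29, 6.00 and 6.29 and was well above background in the treated channels alone. Its ratios were 0.31 ± 0.88 and 0.29 ± 1.02. With the scanner's processed signals, to which these errors belong, they were 1.75 and 1.21. Mmp9, gelatinase B, was well above background in treated AID transgenic liver alone (ratio 0.09 ± 1.05, and 1.14 with processed signals), and Mmp8, neutrophil collagenase, in no channel.

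The inhibitors had positive wild-type ratios for all 3 members (median 0.25) and negative AID transgenic ratios for 2 of 3 (median -0.40, and 0.10 with median centring). Timp2, which also takes part in the activation of Mmp2 by Mmp14, had 8.91, 9.17, 9.22 and 8.65 as the mean of 2 probes, with ratios of 0.25 ± 0.15 and -0.57 ± 0.16. Its brighter probe had levels of 10.41, 10.92, 11.07 and 10.15 and ratios of 0.51 and -0.91, a difference of -1.42, while the dimmer one had -0.00 and -0.23. With the brightest probe alone Timp2 would join the members at 2-fold. Timp3, which binds to matrix, had 10.18, 10.30, 10.22 and 9.82, with ratios of 0.12 ± 0.20 and -0.40 ± 0.21. Timp1, the inhibitor most often followed in liver fibrosis, had 6.43, 7.0, 6.51 and 6.67, and both untreated channels were not well above background. It was at least 1.49-fold higher after treatment in wild-type liver (ratio 0.57 ± 0.37). This size depends on the processing: the wild-type ratio was 2.11 with the scanner's processed signals, 1.23 with offset 0 and 0.60 with median centring. The difference between the arrays was -0.41, and -1.78 and -0.85 with processed signals and offset 0. In AID transgenic liver its ratio of 0.16 ± 0.35 was within its technical error.

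The ADAMTS family and the other proteases had AID transgenic ratios from -0.99 (Adamtsl2) to 0.63 (Ctsk). Adamtsl2, a secreted ADAMTS-like glycoprotein without protease activity that binds fibrillin, had levels of 8.0, 8.06, 8.04 and 7.05. The treated AID transgenic channel stood below the other channels, which lay from 8.0 to 8.06. Its ratios were 0.06 ± 0.21 and -0.99 ± 0.26, a difference of -1.06 ± 0.33. Adamts2, which trims the amino end of procollagen, had ratios of 0.31 and -0.47 as the mean of 2 probes. Its bright probe had levels of 8.84, 9.25, 9.39 and 8.40 and ratios of 0.41 ± 0.21 and -0.99 ± 0.23, and its dim probe 0.20 and 0.05, so this gene too would pass 2-fold in the difference on its brightest probe (-1.40). Adamts1, a versican-cutting protease, had ratios of 0.32 ± 0.21 and 0.18 ± 0.21. Ctsk, cathepsin K, a lysosomal collagenase, had 7.03, 7.39, 7.02 and 7.65. Its ratios were 0.37 ± 0.24 and 0.63 ± 0.24, and its highest channel was treated AID transgenic liver. Plat, tissue plasminogen activator, had 6.51, 6.37, 6.40 and 6.24, with ratios of -0.14 ± 0.39 and -0.16 ± 0.66. Plau, urokinase, was not well above background in any channel.

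The 2 treatment ratios can be set side by side for the 35 members measured in both, since the arrays share no sample. Of these, 19 were above 0 in wild-type and below 0 in AID transgenic liver, as were 13.3% of 16249 genes. Another 12 were above 0 in both (among them Postn, Fbn1, Lamc1 and Ctsk), 3 were below 0 in both, and Fn1 was the remaining one. The shares of all genes in these other groups were not computed. Across these 35 members Pearson's r of the ratios was -0.07 and Spearman's rho 0.07, while Pearson's r over all genes was 0.62. These are descriptions across genes of 2 arrays that share slide, dyes and labelling scheme, and genes are not independent replicates. The direction of a ratio near 0 depends on the scaling: with median centring in place of loess, the AID transgenic ratios of Lamb1, Fbln2, Sparc, Bgn and Timp3 were 0.49, 0.15, 0.40, 0.26 and 0.26, and 14 members in place of 19 had opposite directions. That scaling put the median of all genes at 0.35 and 0.34 on the wild-type and AID transgenic arrays, a shift of 0.32 and 0.31, so that the members lay 0.31 above and 0.42 below it. The sign of the difference between the arrays was the same under every scaling tried for 36 of 37 members, with Plod2 the exception.

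Where the ratios of the genotypes differ, either channel of either array can carry it, so the genotypes were compared within the untreated and within the treated livers. Each genotype was on its own array, so genotype and array cannot be told apart in either comparison. Untreated AID transgenic liver was slightly higher than untreated wild-type liver in 24 of 29 measured members, against 48.8% of 14297 genes, with a median of 0.11 against -0.00. Mfap4 (0.97), Lum (0.78) and Dcn (0.51) were farthest above 0, Mmp7 (-0.34) and Fn1 (-0.27) farthest below, and 0 members reached 2-fold higher or lower (0.308% and 0.294% of all genes). Treated AID transgenic liver was lower than treated wild-type liver in 34 of 37 members, against 51.1% of 17079 genes, with a median of -0.30 against -0.01. Of the 37, 4 were at least 2-fold lower: Mmp7 at -1.12, Mmp2 at -1.04, Lum at -1.02 and Adamtsl2 at -1.01 (0.761% of all genes). Of the 37, 0 were 2-fold higher (0.738% of all genes), and Fstl1 at -0.98 lay just short of the line. The Adamtsl2 value rests on the line too, at -0.9996 with quantile normalization of all 4 channels. Between the treated livers Xist was at -2.88, Ddx3y at 4.58 and Eif2s3y at 5.16, so sex and genotype cannot be told apart there.

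**Figure D3:**
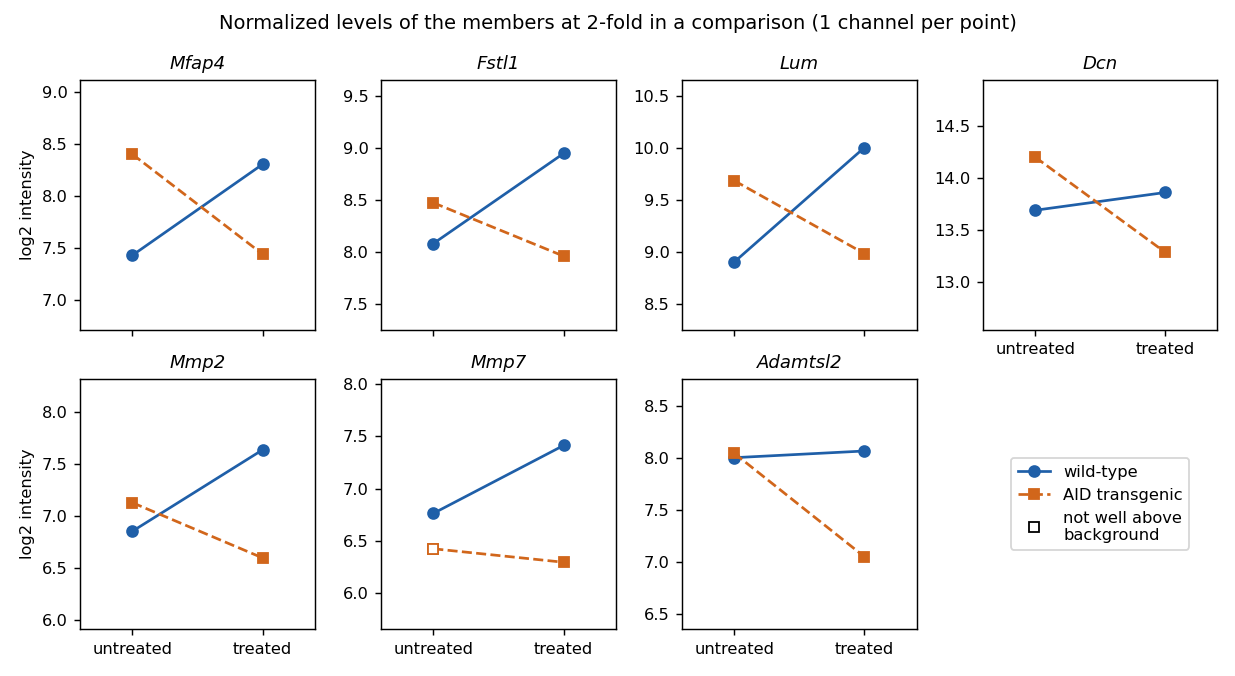
Normalized log2 intensity of the 7 members at 2-fold in at least 1 comparison, with 1 point per channel, a solid line for wild-type and a dashed line for AID transgenic liver, and an open point where the level was not well above background. Lines cross for Mfap4, Fstl1, Lum, Dcn, Mmp2 and Adamtsl2. For Adamtsl2 the untreated levels nearly coincide, and the treated AID transgenic level of 7.05 stands apart from the other channels at 8.0 to 8.06.

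Of the 29 members measured in both genotype comparisons, 24 were higher in untreated AID transgenic and lower in treated AID transgenic liver than in the matching wild-type liver, as were 23.1% of 14269 genes. Across these 29 members Pearson's r between the untreated and the treated genotype differences was -0.44 and Spearman's rho -0.52, against a Pearson's r of 0.11 over all genes. The treated minus the untreated genotype difference equals the difference of the ratios, so these counts and correlations are no independent view of it. Of the 27 members well above background in every channel, 20 were highest in treated wild-type liver and 5 in untreated AID transgenic liver. Of the same 27, 14 were lowest in treated AID transgenic and 11 in untreated wild-type liver. For these counts, and for the median level that follows, the values over all genes were not computed. The median level over these 27 was 7.49, 8.24, 8.04 and 7.66 in the order given above. By this median, untreated AID transgenic liver lay above untreated wild-type and treated AID transgenic below treated wild-type. The summed linear intensity of all 41 members did not show this crossing, at 79940, 79960, 77612 and 73831, and Fn1 alone made up 59.6% to 71.9% of it. Without Fn1 the sum was 24005, 29204, 31346 and 20726, which does cross.

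**Figure D4:**
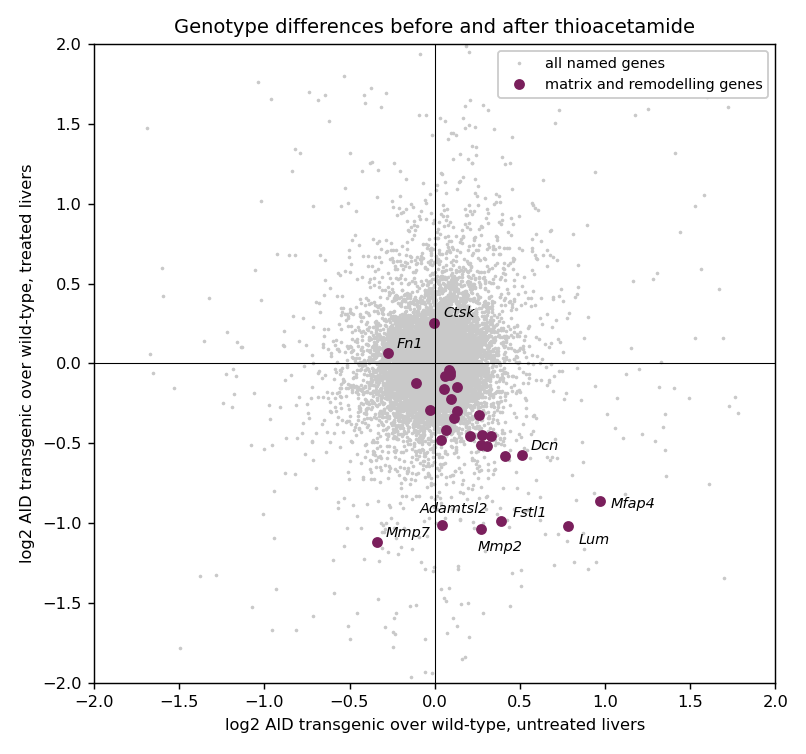
Log2 AID transgenic over wild-type in untreated livers (horizontal) against treated livers (vertical), 1 point per gene, with members in purple over all named genes in grey; axes stop at 2 in size. Of the 29 members, 24 lie to the lower right of the origin, with Mfap4 (0.97, -0.86) and Lum (0.78, -1.02) farthest out.

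The promoters of the members at 2-fold in the genotype difference or in treated livers are shown because these members were all lower in treated AID transgenic than in treated wild-type liver. The RefSeq promoter table, on GRCm38.p6, holds 26 of the 41 members and 3 of these 7 (Fstl1, Mmp7 and Adamtsl2). Each line gives the 150 bases upstream of a transcription start on the plus strand, with capitals marking TATAAA (below, the TATA word), GGGCGG (the GC-box word that Sp1-type factors bind) and TGANTCA (the AP-1 word), each searched on both strands.
Fstl1, chr16:37776905-37777054: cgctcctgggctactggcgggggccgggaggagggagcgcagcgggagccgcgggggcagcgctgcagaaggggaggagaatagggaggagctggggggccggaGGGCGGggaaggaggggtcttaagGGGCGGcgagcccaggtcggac
Mmp7, chr9:7691940-7692089: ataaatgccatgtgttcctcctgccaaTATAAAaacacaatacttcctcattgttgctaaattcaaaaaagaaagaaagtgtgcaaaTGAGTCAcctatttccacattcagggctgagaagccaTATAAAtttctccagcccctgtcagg
Adamtsl2, chr2:27079229-27079378: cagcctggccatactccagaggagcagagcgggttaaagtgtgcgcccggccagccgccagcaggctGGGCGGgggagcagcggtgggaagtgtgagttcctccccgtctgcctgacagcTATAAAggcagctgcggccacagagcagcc
The Fstl1 window is GC-rich (75.3% G and C) with 2 GC-box words and no TATA word, while the Mmp7 window has 38.7% G and C with 2 TATA words and 1 AP-1 word. Adamtsl2, at 66.7% G and C, has 1 TATA word 30 bases before the start and 1 GC-box word. A second annotated start of Mmp7 has none of these words in its window. Over all 32851 promoters of the table, 7.6% hold the TATA word, 28.6% the GC-box word and 4.2% the AP-1 word in this window. The 26 members have 30 promoters in the table, of which 7 (23.3%), 15 (50%) and 2 (6.7%) hold them. These are matches of letters and not shown sites of binding, and the 3 windows share no word common to all of them.

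Other matrix genes were read in the same way from a list of 117 genes on the array that are no members. In wild-type liver 1 of 94 measured was called higher and 2 lower (median 0.07), and in AID transgenic liver 2 of 95 higher and 1 lower (median -0.11, and 0.08 with median centring). Over all genes the shares higher and lower were 1.86% and 1.64% in wild-type and 1.22% and 0.947% in AID transgenic liver. Smoc2, a SPARC-related glycoprotein, was higher in the treated channel on both arrays, at 1.01 ± 0.23 and 1.23 ± 0.24. The protease inhibitor gene Serpine2 was lower on both, at least 4.63-fold in wild-type liver and at -1.56 ± 0.36 in AID transgenic liver. Ctss, the macrophage-rich cathepsin S, had 0.51 and 1.46, an order like that of its relative Ctsk. In the difference of the ratios 63 of 98 were below 0 (median -0.09), 7 were called lower and 2 higher. Of all genes 1.05% were called lower and 0.929% higher in it. The 7 lower genes were Sparcl1, a relative of Sparc (-1.47 ± 0.31), the collagen chaperone gene Serpinh1 (-1.38 ± 0.31), osteopontin Spp1 (-1.14 ± 0.31), the procollagen C-proteinase enhancer Pcolce (-1.05 ± 0.30), Tgfbi (-1.04 ± 0.30), the heparan sulfatase Sulf2 (-1.04 ± 0.31) and the small proteoglycan Ogn (-1.0 ± 0.37). With loess normalization all 7 were above 0 in wild-type and below 0 in AID transgenic liver. The 2 higher genes were Omd, osteomodulin, at 2.10 ± 0.53, whose wild-type ratio was -2.17 ± 0.48, and the laminin alpha 3 gene Lama3 at 1.14, whose 2 probes differed with an SD of 0.87.

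Markers of the cells that make matrix were set beside the members. In the wild-type ratio 6 of the 13 markers of stellate cells and myofibroblasts were above 0, with a median of -0.06 (0.48 with median centring), where most members were above 0. In the difference they lay on the same side as the members. All 13 had a difference of the ratios below 0, with a median of -0.62, and 5 were called lower, against 1.05% of all genes. Their summed linear intensity was 7765 in untreated and 8188 in treated wild-type liver, and 11117 in untreated and 6018 in treated AID transgenic liver. Of the defining markers Acta2 had ratios of -0.32 ± 0.21 and -1.89 ± 0.29, Lrat 0.80 ± 0.22 and -0.53 ± 0.22, and Des -0.10 ± 0.33 and -0.31 ± 0.36, and each was well above background in every channel. In the untreated comparison 8 of these 13 were above 0 and 5 below. Of the 13, 3 were at least 2-fold higher in AID transgenic liver, against 0.308% of all genes. The defining markers did not move together there, with Acta2 at 1.41, Des at 0.13 and Lrat at -0.23. Markers of portal fibroblasts and mesothelium were below 0 in the difference for 7 of 8 (median -0.54), with Msln at -1.80 and Thy1 at -0.40, and summed to 1255, 1475, 1635 and 1382. Their part, and that of the stellate cell markers, in the members' values was not tested. In such bulk liver RNA, fewer cells of a type and less RNA per cell cannot be told apart.

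Markers of other cell types were read in the same way. Among the values below, the differences of Camp, Cd3e, Cd79a and Apoa1 were no larger than their scanner errors of 0.22, 0.29, 0.75 and 0.37. Markers of cholangiocytes were below 0 in the difference for 5 of 8 (median -0.22), with Krt19 at -1.46, and summed to 1290, 1554, 1387 and 1219. Their defining markers Krt7 and Epcam were well above background in treated wild-type liver alone. Macrophage markers were above 0 in 7 of 12 (median 0.28), with the defining markers Clec4f at 0.99, Adgre1 at 0.83 and Csf1r at 0.67, while Gpnmb (-1.01), Trem2 (-0.91), Cd63 (-0.55) and Cd9 (-0.36) were below 0. They summed to 17749, 30855, 23503 and 51337. Their summed level was highest in treated AID transgenic liver, like Ctsk and Ctss, and of the 27 members well above background in every channel Ctsk alone was highest there. Markers of sinusoidal endothelium were above 0 in 8 of 8 (median 0.32) and summed to 24013, 20533, 23569 and 24096, with Stab2 at 0.34 and Clec4g at 0.29. Neutrophil markers were above 0 in 5 of 7 (median 0.22), summing to 26372, 31286, 25047 and 36145, with S100a8 at 1.09, Camp at 0.17 and Ngp not well above background in any channel. Csf3r made up at least 86.9% of each of these sums, which were 3445, 3351, 3109 and 3612 without it. T and B cell markers were above 0 in 7 of 8 (median 0.10), summing to 3277, 2707, 3741 and 3133, with Cd3e at 0.02 and Cd79a at 0.09. Hepatocyte markers were below 0 in 7 of 10 (median -0.08) and summed to 816616, 610750, 803571 and 623525, with Alb, Ttr and Apoa1 at -0.43, 0.32 and -0.05. The part of these cell types in the members' values was not tested.

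**Figure D5:**
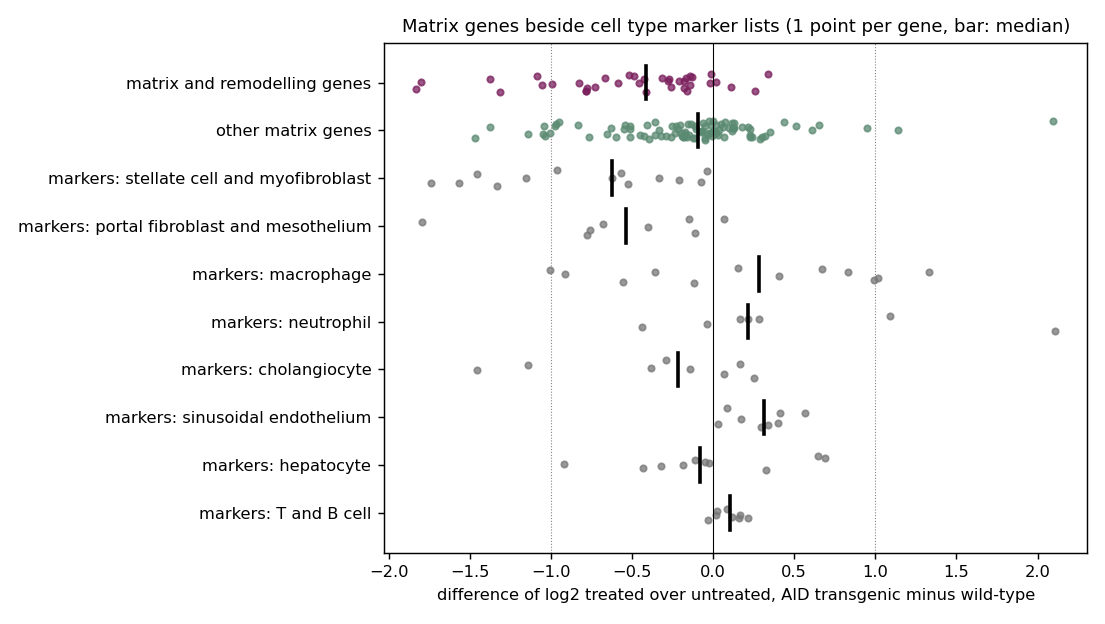
Difference of the log2 treatment ratios, AID transgenic minus wild-type, with 1 point per measured gene (vertical scatter has no meaning) and a bar at each list's median, for the members, the other matrix genes and 8 lists of cell type markers. The bars stand at -0.41 for the members, -0.62 for stellate cell and myofibroblast markers, -0.54 for portal fibroblast and mesothelium markers, -0.22 for cholangiocyte markers and -0.09 for the other matrix genes.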

How the data were processed

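Liver RNA was measured on 2 two-colour Agilent arrays. The authors deposited scanner output in which mean signals, local background medians and processed signals are intensity values, per the file headers. A deposited log10 ratio sets red against green processed signal, and its deposited error is a score of the scanner software in the same unit. The headers name Feature Extraction 10.7.3.1, where the submitters' processing notes have 10.5.1.1. The deposited value table equalled the log10 ratios (largest difference 0, column medians 0), and 0 of its per-sample columns were left unused.

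Mean signals were corrected with normexp (offset 50) and loess within each array, with Aquantile between arrays for levels (R 4.3.3, limma 3.58.1). Control spots and 197 and 207 outlier spots were left out. Values are means over spots and then probes. A probe was well above background when 50% of its spots were. Errors were propagated over probes. A fold against a channel not well above background is a lower bound, set at the higher of that level and the channel's lowest level well above background; it compares channels and is open to dye bias. Gene names came from a RefSeq table (GRCm38.p6) by accession (26000 probes), symbol (3194) or synonym (930), and 9249 probes had none. A check of the genotype labels on the array is not reported here. Of the members' 56 probes, 55 had an accession that names the same gene. The background correction and the normalization of ratios were run on simulated spots with known ratios. The background filter, averaging over probes, fold bounds and levels between arrays were not tested in this way. Tables used Python 3.11.15, numpy 2.4.6, pandas 2.3.3 and matplotlib 3.10.9.

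The members and lists were chosen with earlier results of these data known, so no list is independent evidence. Every member was named. Levels were given for members at 2-fold and for the highest and lowest of each role. Other matrix genes were named when at 2-fold in a ratio or in the difference, and marker genes when defining. Alternatives were the scanner's processed signals, normexp offset 0, median centring, every channel above background, the brightest probe, quantile normalization between arrays and a 1.5-fold rule.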

Additional observations from a re-analysis of the deposited data

Results flagged for a closer look

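For 6 members the treatment ratios had opposite directions on the arrays and differed by at least 2-fold. With 1 array per genotype this difference was not tested. These are the same 6 members called lower in the difference above, as were 1.05% of all genes. The share of all genes that also had opposite directions was not computed. The difference, AID transgenic minus wild-type on the log2 scale, was -1.83 for Mfap4 (0.87 and -0.96), -1.80 for Lum (1.10 and -0.70) and -1.38 for Fstl1 (0.86 and -0.51), where the values in parentheses are the wild-type and the AID transgenic ratio. It was -1.31 for Mmp2 (0.78 and -0.53), -1.09 for Dcn (0.17 and -0.91) and -1.06 for Adamtsl2 (0.06 and -0.99). For Dcn and Adamtsl2 the wild-type ratio was no larger than the scanner's error of it (0.20 and 0.21), so the opposite direction rests on values near 0. Which values are near 0 depends on the scaling: with median centring these wild-type ratios were 0.93 and 0.54, while the AID transgenic ratios of Fstl1, Lum and Dcn were -0.03, -0.08 and -0.18. Sex-linked transcripts differed within the wild-type array, which enters all 6 differences, so sex and treatment cannot be told apart there.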

How the results depend on the processing

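No paired analysis was possible because there is 1 array per genotype. No called member and no median over all members reversed its direction, and the cause of each shift below was not tested. Medians of smaller groups did reverse in the AID transgenic ratio: the fibronectin and matricellular role from -0.03 to 0.09 with processed signals and 0.40 with median centring, the inhibitors from -0.40 to 0.10 and the other matrix genes from -0.11 to 0.08 with median centring, and the elastic fibre genes from 0.01 to -0.06 and -0.02 with processed signals and offset 0. With the scanner's processed signals the count of members at 2-fold was 13 in the wild-type ratio, 7 in the AID transgenic ratio (3 higher, 4 lower), 17 in the difference (1 higher, 16 lower), 1 in untreated and 10 in treated livers (1 higher, 9 lower), with medians of 0.71, -0.23, -0.76, 0.27 and -0.57. Of all genes 13.1%, 11.9%, 10.1%, 2.94% and 5.39% were then at 2-fold in either direction. With offset 0 the counts were 8, 3 (1 higher, 2 lower), 10 and, in untreated livers, 1, (7.13%, 5.33%, 5.14% and 1.43% of all genes), and the medians 0.44, -0.22, -0.63, 0.21 and -0.47. Median centring gave 9 (11.0% of all genes) and a median of 0.66 in the wild-type ratio, and the brightest probe gave 2 (4.0%). With every channel above background the AID transgenic median was -0.24. A 1.5-fold rule gave 9, 5, 14 and 2 in the wild-type ratio, the AID transgenic ratio, the difference and untreated livers, against 10.9%, 8.16%, 5.88% and 1.97% of all genes. The called members stayed at 2-fold in every alternative, except Adamtsl2 in treated livers with quantile normalization (-0.9996). Over all genes, higher and lower calls numbered 310 and 274 in the wild-type and 203 and 158 in the AID transgenic ratio. Median centring gave 1729 and 102, and 1358 and 53, the processed signals 1585 and 602, and 1528 and 466, and offset 0 gave 782 and 406, and 620 and 269. Signal over background limits 14 of the 41 members, which were dim in at least 1 channel, and 4 of these (Tnc, Lox, Mmp8, Plau) in all.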
